A study of Mus musculus with 24 samples.

Results

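Foxj1, Otx2, Ttr, Folr1, Kl, Clic6, Msx1 and Aqp1 are genes known from the choroid plexus and from the ependyma, the ciliated lining of the brain ventricles. The 8 genes were looked up among 17993 regions of histone H3 lysine 4 trimethylation (H3K4me3), of which 13404 contained a transcription start site (TSS) annotated in GENCODE M1 on mm9. For 3 of the 8 genes, Foxj1, Kl and Msx1, a region contained the TSS. No region of the list contained a TSS of Otx2, Ttr, Folr1, Clic6 or Aqp1.

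H3K4me3 was measured in the cerebral cortex of C57BL/6 mice whose chromatin carried a FLAG-tagged histone H2B, in 4 groups of 3 libraries. Rosa H2B-FLAG mice (genotype Rosa CAG-H2B-FLAG) came from a cross with Vasa-Cre, carried a single copy of the recombined allele and expressed the tag from the CAG promoter in nearly all cells of the cortex; their age is given only as adult. Camk2a H2B-FLAG mice (Rosa26 CAG-floxed-pA-H2B-FLAG/ CaMKCreERT2) were male double heterozygotes, received 5 daily injections of tamoxifen, 1 mg per day, at 8 weeks of age, and were used a month later. Here the tag is also driven by CAG, but only where CreERT2 under the Camk2a promoter had recombined the allele, which is in Camk2a-positive neurons. In single ChIP-Seq, chromatin was precipitated with an antibody to H3K4me3 alone, and in tChIP-Seq (tandem ChIP-Seq) with an antibody to FLAG and then with the antibody to H3K4me3. A lysate pooled the cortex of 2 animals, and no label names the choroid plexus or the ventricular wall. In the Rosa line the libraries held 6316125 to 8644574 counts (single ChIP-Seq) and 1457261 to 1828371 counts (tChIP-Seq), and in the Camk2a line 4063200 to 4233144 and 2709729 to 3049130 counts. P-values set a difference against the spread between the 3 libraries of a group, with information on spread shared over regions. Libraries of a group differed by little more than counting noise, with a chi-square per degree of freedom of 1.03 to 1.09. The paper calls the Rosa experiments independent, but the sample titles only number the libraries. Whether the spread covers variation between animals is thus not known.

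The choroid plexus is a sheet of epithelial cells in the ventricles that secretes cerebrospinal fluid, and ependymal cells move this fluid with motile cilia. Foxj1 is the transcription factor that switches on the genes of motile cilia. Otx2 and Msx1 are homeobox transcription factors, Otx2 being needed for choroid plexus development and Msx1 acting downstream of bone morphogenetic proteins at the dorsal midline from which the choroid plexus arises. Ttr encodes transthyretin, the carrier of thyroid hormone that the choroid plexus secretes, and Folr1 a folate receptor. Kl encodes klotho, a co-receptor for fibroblast growth factor 23, Clic6 a protein of the chloride intracellular channel family, and Aqp1 a water channel. H3K4me3 marks promoters of active genes and also many promoters rich in CpG dinucleotides that are little transcribed.

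At their most upstream TSS, the promoters of the 8 genes differed in CpG content, and the 3 with a region were the 3 richest. Within 500 bp on each side of the most upstream TSS, the ratio of observed to expected CpG was 0.724 for Kl, 0.695 for Foxj1 and 0.674 for Msx1. It was 0.520 for Otx2, 0.418 for Clic6, 0.320 for Aqp1, 0.258 for Ttr and 0.112 for Folr1. Over all 22347 annotated promoters, 13333 (59.7%) had a region at the TSS, and the median ratio was 0.728 with a region and 0.197 without. The share with a region was 6.38% at ratios under 0.2, 24.4% from 0.2 to 0.4, 72.2% from 0.4 to 0.6 and 94.1% from 0.6 to 0.8. Kl, Foxj1 and Msx1 thus fell in a class of promoters of which nearly all had a region, and Folr1 in the class where a region was rarest. Otx2 and Clic6 lacked a region in a class where most promoters had one. Otx2, Clic6 and Folr1 have further annotated TSSs, at which the ratio was not measured.

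**Figure D1:**
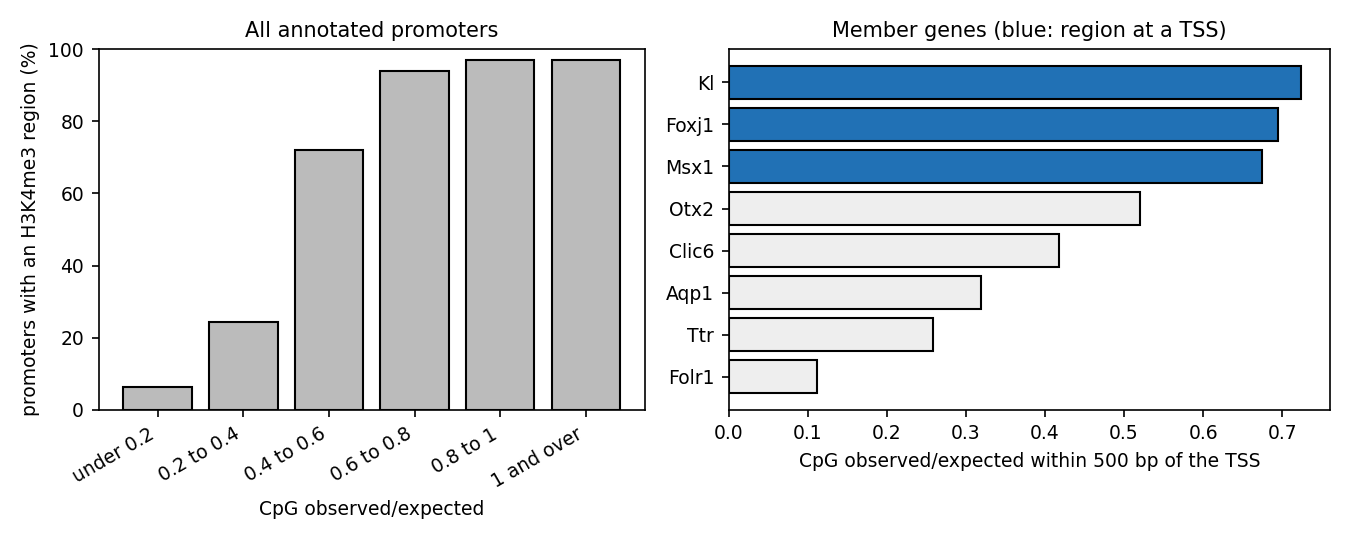
CpG content and H3K4me3 regions. The left panel gives the percent of annotated promoters with a region at the TSS in 6 classes of the CpG observed/expected ratio, rising from 6.38% to 96.9%, and the right panel gives the ratio for each of the 8 genes, with Kl, Foxj1 and Msx1, the genes with a region, at the top.

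The 250 bases directly before the TSS are shown for the 3 genes with a region and, for contrast, for Otx2 and Folr1, which have none. They were read from mm9 and run 5′ to 3′ on the strand of the gene, with CpG dinucleotides in capitals. Foxj1 lies on the minus strand at chr11:116196714-116196963, Msx1 on the minus strand at chr5:38215823-38216072, Kl on the plus strand at chr5:151754932-151755181, Otx2 on the minus strand at chr14:49287320-49287569 and Folr1 on the minus strand at chr7:109019303-109019552.
Foxj1: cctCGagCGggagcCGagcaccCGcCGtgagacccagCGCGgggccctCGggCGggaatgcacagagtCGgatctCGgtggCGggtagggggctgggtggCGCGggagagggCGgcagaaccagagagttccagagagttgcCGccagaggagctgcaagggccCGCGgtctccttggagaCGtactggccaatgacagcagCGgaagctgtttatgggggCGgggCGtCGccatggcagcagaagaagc
Msx1: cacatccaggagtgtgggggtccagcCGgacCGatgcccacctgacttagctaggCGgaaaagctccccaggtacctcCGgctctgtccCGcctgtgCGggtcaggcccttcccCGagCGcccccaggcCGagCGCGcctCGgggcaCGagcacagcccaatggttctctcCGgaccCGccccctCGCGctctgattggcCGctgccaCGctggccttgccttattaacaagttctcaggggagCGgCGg
Kl: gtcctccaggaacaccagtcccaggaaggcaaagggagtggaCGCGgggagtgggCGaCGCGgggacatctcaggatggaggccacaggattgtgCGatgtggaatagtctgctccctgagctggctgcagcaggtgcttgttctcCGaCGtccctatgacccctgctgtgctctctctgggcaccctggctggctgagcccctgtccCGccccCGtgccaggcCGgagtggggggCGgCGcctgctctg
Otx2: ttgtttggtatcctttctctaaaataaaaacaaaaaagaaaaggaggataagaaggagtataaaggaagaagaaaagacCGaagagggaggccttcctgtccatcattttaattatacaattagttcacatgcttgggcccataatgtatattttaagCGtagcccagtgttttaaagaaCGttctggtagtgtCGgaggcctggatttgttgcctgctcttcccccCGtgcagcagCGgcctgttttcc
Folr1: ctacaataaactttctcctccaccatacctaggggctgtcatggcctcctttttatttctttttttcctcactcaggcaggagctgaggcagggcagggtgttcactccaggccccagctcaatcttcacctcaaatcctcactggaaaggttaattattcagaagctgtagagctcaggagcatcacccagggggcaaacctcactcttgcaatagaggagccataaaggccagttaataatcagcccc

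These windows held 23 CpG dinucleotides for Foxj1, 21 for Msx1 and 13 for Kl, against 6 for Otx2 and 0 for Folr1. The same 250 bases of the 8 genes were searched on both strands for 4 short motifs, none of which overlapped another. GTTGCC, a half-site of RFX factors, began 113 bp before the TSS in Foxj1, 41 bp in Otx2, 60 bp in Ttr and 244 bp in Aqp1, and was present in 9.92% of all promoters. TATAAA began 30 bp before the TSS in Aqp1 and 192 bp in Otx2, and was present in 12.3%. TAATCC, the core bound by OTX factors (6.46% of promoters), and the forkhead core GTAAACA (2.73%) were not found in these windows. Such matches describe letters only.

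The Foxj1 region spanned 943 bp (chr11:116196499-116197441) and reached 728 bp upstream and 214 bp downstream of the TSS. Its part inside the gene held 182 bp of untranslated exon and 33 bp of intron. The Kl region spanned 965 bp (chr5:151754843-151755807) and reached 339 bp upstream and 625 bp downstream, over 110 bp of untranslated and 516 bp of coding exon. The Msx1 region spanned 3011 bp (chr5:38213107-38216117), wider than 84.1% of regions, and extended 2715 bp into the gene, over 719 bp of exon and 1997 bp of intron. The Msx1 gene is 4099 bp long, so the mark lay over most of it.

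**Figure D2:**
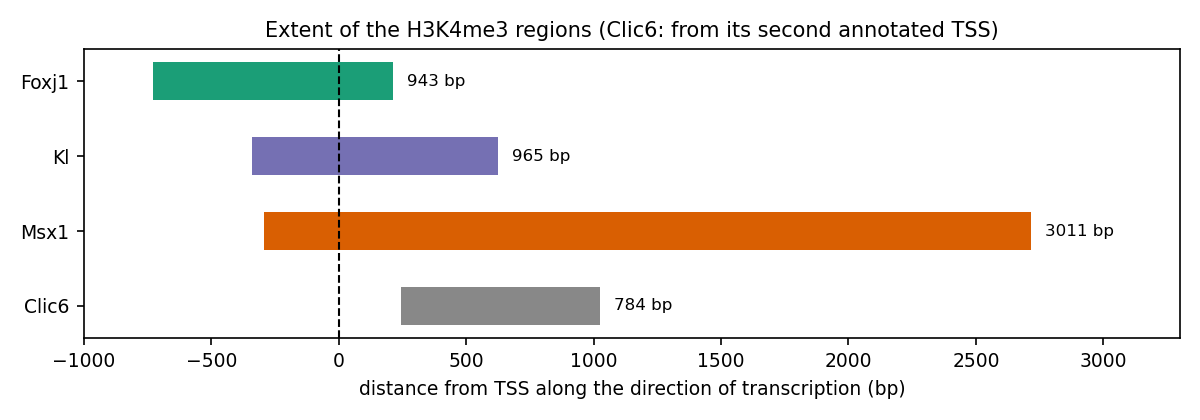
Extent of the regions in bp along the direction of transcription, with the TSS at 0 and the width of each region beside its bar. The Msx1 region, 3011 bp wide, lies mostly downstream of the TSS, the Foxj1 region mostly upstream, and the Clic6 region starts 243 bp downstream of the second annotated TSS of that gene.

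For the genes without a TSS region, the nearest region was 24.9 kb from the most upstream TSS of Folr1, 79.1 kb from that of Ttr, 115 kb from that of Aqp1 and 220 kb from that of Otx2. Clic6 has a pair of annotated TSSs, and a region of 784 bp (chr16:92498622-92499405) started 243 bp downstream of the second. It lay wholly in exon, with 707 bp of coding and 77 bp of untranslated sequence, and it was assigned to Clic6 only when a TSS within 1000 bp was accepted. Its values are given beside those of the 3 genes and are not counted among them. Reads outside the listed regions were not counted in the deposited files, so H3K4me3 below the level of a called peak at Otx2, Ttr, Folr1 or Aqp1 could not be measured.

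Msx1 had the most reads of the 4 regions, with 2155 over the 12 libraries, close to the middle of all regions (percentile 49.5). Its count was 306, 380 and 294 in single ChIP-Seq of the Rosa line, 159, 162 and 151 in tChIP-Seq of the Rosa line, 182, 180 and 170 in single ChIP-Seq of the Camk2a line, and 68, 51 and 52 in tChIP-Seq of the Camk2a line. Expressed as CPM, the count relative to library size with TMM factors over the 12 libraries, these were 44.3, 45.5 and 48.1 CPM, 83.0, 96.6 and 99.1 CPM, 44.8, 42.9 and 42.4 CPM, and 22.3, 18.4 and 19.2 CPM. The highest libraries were the 3 of tChIP-Seq in the Rosa line and the lowest were the 3 of tChIP-Seq in the Camk2a line, while the single ChIP-Seq libraries of both lines lay between them and overlapped each other.

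Foxj1 had 771 reads in all (percentile 28.6). The counts were 95, 126 and 87 in Rosa single ChIP-Seq, 49, 50 and 29 in Rosa tChIP-Seq, 71, 66 and 61 in Camk2a single ChIP-Seq, and 38, 55 and 44 in Camk2a tChIP-Seq. As CPM they were 13.8, 15.1 and 14.2, then 25.6, 29.8 and 19.0, then 17.5, 15.7 and 15.2, and last 12.5, 19.8 and 16.2. The Rosa tChIP-Seq libraries were high, but the lowest of them, 19.0 CPM, was below the highest of Camk2a tChIP-Seq, 19.8 CPM, so these groups overlapped.

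Kl had 470 reads (percentile 21.7). The counts were 48, 72 and 34 in Rosa single ChIP-Seq, 38, 25 and 19 in Rosa tChIP-Seq, 33, 30 and 45 in Camk2a single ChIP-Seq, and 47, 43 and 36 in Camk2a tChIP-Seq. The corresponding levels were 6.95, 8.61 and 5.56 CPM, 19.8, 14.9 and 12.5 CPM, 8.12, 7.16 and 11.2 CPM, and 15.4, 15.5 and 13.3 CPM. For Kl both tChIP-Seq groups lay above both single ChIP-Seq groups, and within each kind of ChIP-Seq the lines overlapped.

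The region in Clic6 had 373 reads, with 30, 39 and 22 in Rosa single ChIP-Seq, 38, 28 and 22 in Rosa tChIP-Seq, 19, 27 and 28 in Camk2a single ChIP-Seq, and 35, 35 and 50 in Camk2a tChIP-Seq. The mean was 4.20 ± 0.547 CPM, 17.0 ± 2.71 CPM, 6.03 ± 1.20 CPM and 14.2 ± 3.72 CPM, respectively (SD, n = 3 each). It resembled Kl in the order of its groups, with both tChIP-Seq groups above both single ChIP-Seq groups.

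**Figure D3:**
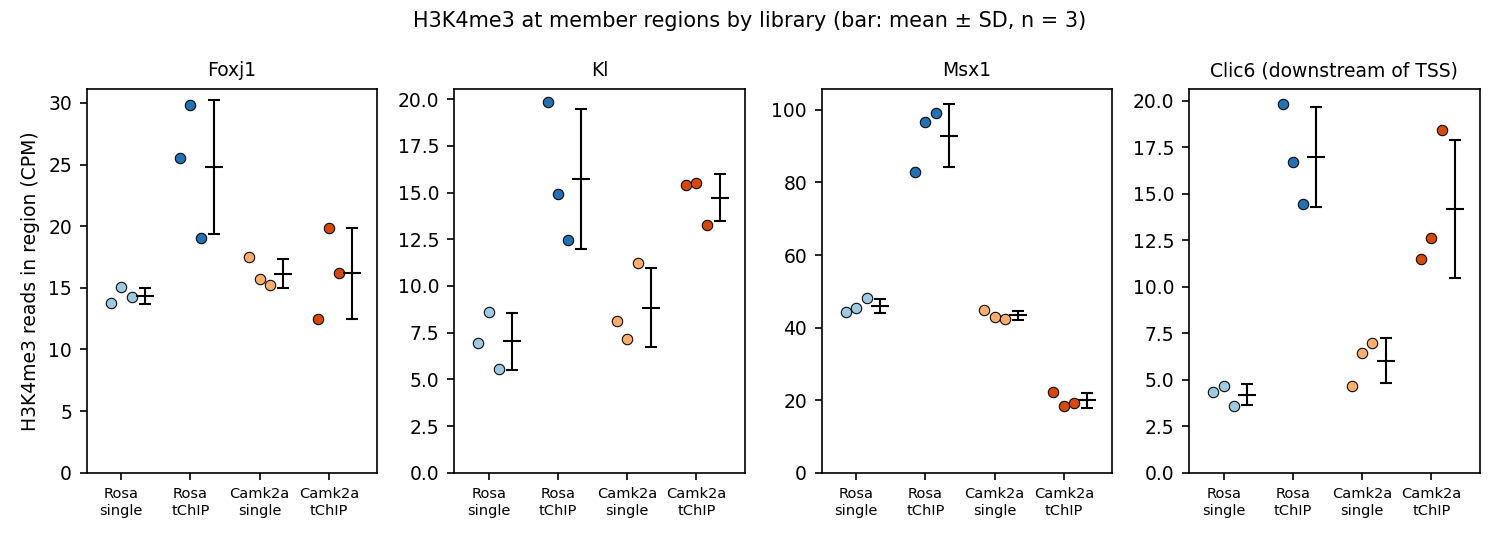
H3K4me3 reads in CPM at the regions of Foxj1, Kl, Msx1 and Clic6 in each library of the 4 groups, with the mean and SD of 3 libraries beside the points. Msx1 is the region where the tChIP-Seq libraries of the lines separate, at 83.0 to 99.1 CPM in the Rosa line and 18.4 to 22.3 CPM in the Camk2a line.

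Levels were compared between the genes per kb of region. In Rosa single ChIP-Seq, Foxj1 and Msx1 stood at the same level, 15.2 ± 0.706 and 15.3 ± 0.644 CPM per kb, and Kl at 7.30 ± 1.58 (SD, n = 3 each). All were below the median of all regions in that group, 23.3 CPM per kb. In Camk2a single ChIP-Seq the levels were 17.1 ± 1.26 for Foxj1, 14.4 ± 0.422 for Msx1 and 9.15 ± 2.20 for Kl, with a median of 23.6. In Rosa tChIP-Seq, Msx1 stood at 30.8 ± 2.88 CPM per kb and Foxj1 at 26.3 ± 5.77, both above the median of 23.8, and Kl at 16.3 ± 3.89. In Camk2a tChIP-Seq the order changed, with Foxj1 at 17.2 ± 3.91, Kl at 15.3 ± 1.32 and Msx1 lowest at 6.63 ± 0.688 CPM per kb against a median of 24.5. By this measure Msx1 stood at percentile 69.5 of all regions in Rosa tChIP-Seq and at percentile 6.69 in Camk2a tChIP-Seq.

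In tChIP-Seq, the lines differ in which cells carry the tag. The comparison asks which regions differ between tagged excitatory neurons and a population in which nearly all cells are tagged. The lines also differ in Cre driver and tamoxifen, and the paper gives sex and an age in weeks only for the Camk2a line. Effects of these cannot be told apart from the tagged cells. By the paper, labelled cells in the brain are about as frequent as the lowest share its method can handle. Chromatin of untagged cells may thus be present too. H3K4me3 at Msx1 was 4.58-fold lower in the Camk2a line than in the Rosa line, or -2.19 on the log2 scale (SE 0.121, adjusted p = 2.15e-27, edgeR's quasi-likelihood test with Benjamini-Hochberg adjustment over all regions). This was rank 318 from the lowest among the 17993 regions. Foxj1 was also lower, by 1.55-fold, or -0.63 on the log2 scale (SE 0.186, adjusted p = 0.00389). Kl was at -0.11 (SE 0.207, adjusted p = 0.712) and the region in Clic6 at -0.28 (SE 0.209, adjusted p = 0.298), and neither passed the threshold of 0.01. Thus 2 of the 3 genes were called lower and 0 higher, where 14.6% of all regions were called lower and 17% higher. Among the 4501 regions with total counts from 599 to 2189, which include Msx1 and Foxj1, 22.8% were called lower and 14.7% higher.

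The call for Msx1 held in each alternative fit, with log2 fold changes from -2.29 to -2.14. The call for Foxj1 was lost with the Wald test of DESeq2 (adjusted p = 0.0373) and on leaving out Camk2a tChIP replicate 1 (edgeR, adjusted p = 0.0497), Rosa tChIP replicate 1 (0.0194) or Rosa tChIP replicate 2 (0.0664). A lower value in a mixture of cells can mean fewer cells that carry the mark or less of the mark per cell, and these cannot be told apart.

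In single ChIP-Seq, where chromatin of all cells was precipitated in both lines, none of the 3 genes was called in either direction, where 0.928% of all regions were called higher and 1.22% lower in the Camk2a line. The log2 fold change was -0.08 for Msx1 (SE 0.0803, adjusted p = 0.585), 0.16 for Foxj1 (SE 0.135, adjusted p = 0.508), 0.29 for Kl (adjusted p = 0.374) and 0.50 for the region in Clic6 (SE 0.228, adjusted p = 0.172), all by edgeR. The Foxj1 libraries of the lines did not overlap, at 13.8 to 15.1 CPM and 15.2 to 17.5 CPM, and neither did those of Clic6, with 4.67 CPM in the highest Rosa and 4.68 CPM in the lowest Camk2a library, with the Camk2a line higher in both. Neither difference passed the test, and the share of all regions without overlap was not counted. Regions with few reads tended upward here. The median log2 fold change was 0.22 at total counts of at most 598, which include Clic6. It was 0.06 from 599 to 2189, which include Foxj1.

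**Figure D4:**
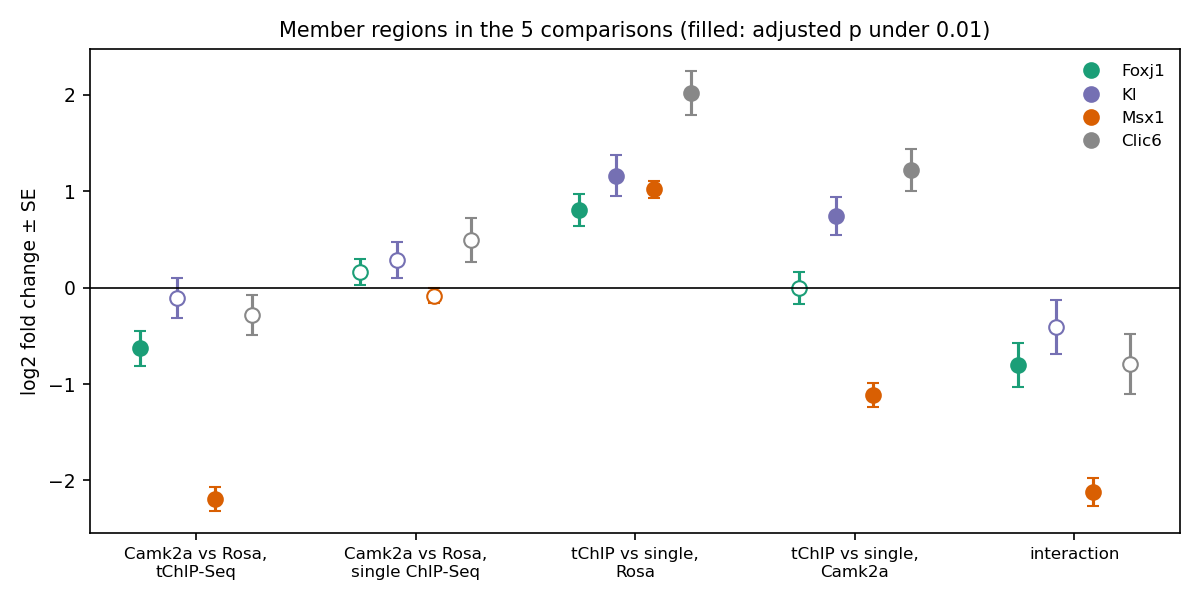
Log2 fold change with its SE for Foxj1, Kl, Msx1 and Clic6 in each comparison and for the interaction of line and kind of ChIP-Seq. Filled points had an adjusted p under 0.01; Msx1 is filled below 0 in tChIP-Seq between the lines, at -2.19, and open near 0 in single ChIP-Seq, at -0.08.

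Within the Rosa line, where nearly all cells carry the tag, tChIP-Seq adds the FLAG purification to single ChIP-Seq, and its libraries were less deep. The paper also found sites that differed here. As possible reasons it proposes a bias towards longer DNA after the purification, or effects of the tag or the H2B variant. Its own quantitative comparisons were therefore mainly between the lines in tChIP-Seq. All 3 genes were called higher in tChIP-Seq, where 24.7% of all regions were called higher and 22.5% lower. The log2 fold change was 1.02 for Msx1 (SE 0.0878, adjusted p = 4.16e-29), 0.81 for Foxj1 (SE 0.161, adjusted p = 2.87e-06) and 1.16 for Kl (SE 0.210, adjusted p = 1.97e-07), and it was 2.02 for the region in Clic6 (SE 0.227, adjusted p = 1.93e-17), all by edgeR. In each case the lowest tChIP-Seq library lay above the highest single ChIP-Seq library, and the share of all regions that separate in this way was not counted. Regions with few reads moved the same way in this comparison. The classes were cut on total counts over the 12 libraries, of which single ChIP-Seq gave more than tChIP-Seq in each line. They are thus not independent of the comparisons between the kinds of ChIP-Seq. Of the 4501 regions with total counts of at most 598, which include Kl and Clic6, 47.1% were called higher and 0.555% lower, with a median log2 fold change of 0.80. Of those from 599 to 2189, 37.7% were called higher and 7.91% lower, with a median of 0.21.

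Within the Camk2a line, the same comparison sets excitatory neurons that carry the tag against the whole cortex. The FLAG purification differs as well, and its effect cannot be told apart from that of the cells. Msx1 was called lower in tChIP-Seq, at -1.11 on the log2 scale (SE 0.123, adjusted p = 2.24e-15), and Kl higher, with 0.74 (SE 0.196, adjusted p = 0.000557), by edgeR. Foxj1 was at -0.01 (SE 0.166, adjusted p = 0.973), and the region in Clic6 rose by 1.22 (SE 0.217, adjusted p = 3.88e-07). Of all regions, 25.3% were called higher and 22.6% lower, and of those with at most 598 reads, 37.3% were called higher. The call for Kl was lost with DESeq2 (adjusted p = 0.0165) and on leaving out Camk2a single ChIP replicate 2 (edgeR, adjusted p = 0.0112). Each of the 4 comparisons of groups shares its libraries with 2 of the others, so the values of a gene in them are not independent.

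The interaction tested whether the change from single ChIP-Seq to tChIP-Seq differed between the lines, over all 12 libraries. It was -2.12 on the log2 scale for Msx1 (SE 0.148, adjusted p = 5.86e-33) and -0.80 for Foxj1 (SE 0.228, adjusted p = 0.00235) by edgeR. It was -0.41 for Kl (SE 0.283, adjusted p = 0.281) and -0.79 for the region in Clic6 (SE 0.312, adjusted p = 0.0366), which did not pass. Without Camk2a tChIP replicate 3 the Clic6 value was -1.01 and passed (adjusted p = 0.00856). So 2 of 3 genes were called lower, against 13.2% of all regions called lower and 13.7% called higher, and against 22.4% and 10% of the regions with 599 to 2189 reads. For Foxj1 the call was lost with DESeq2 (adjusted p = 0.0116) and on leaving out Camk2a tChIP replicate 1 (edgeR, adjusted p = 0.0281) or Rosa tChIP replicate 2 (0.0318).

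Other genes known from choroid plexus epithelium were examined as a list of 24, of which 10 had a TSS region. Those without one included the potassium channel genes Kcnj13 and Kcne2, the bicarbonate transporter gene Slc4a5, the tight junction genes Cldn2 and Cldn3, and Sostdc1, an inhibitor of bone morphogenetic proteins. The defining markers of this epithelium, Ttr, Kcnj13, Cldn2 and Folr1 among them, thus gave no value in these files. Of the 10 measured in tChIP-Seq, 3 were higher in the Camk2a line, 2 were lower and 5 did not pass the test, where 17% of all regions were called higher and 14.6% lower, and the median log2 fold change was 0.22 against -0.0033 for all regions. Htr2c, a serotonin receptor gene expressed in the choroid plexus and in neurons, was at 5.74, 7.75 and 3.94 CPM in the Rosa line and at 16.1, 16.2 and 16.2 CPM in the Camk2a line, a log2 change of 1.46 (SE 0.261, adjusted p = 2.08e-06, edgeR). Its levels in the Rosa line rest on few reads. Col8a1, a short-chain collagen gene, rose by 0.95 (SE 0.172), and Prlr, the prolactin receptor gene, rose by 0.84 (SE 0.255), though the libraries of Prlr overlapped and its call was lost with DESeq2, with library totals alone and with 4 of the 6 libraries left out in turn. Trpv4, a cation channel gene, was at 22.4, 20.3 and 19.7 CPM in the Rosa line and at 11.5, 10.8 and 9.21 CPM in the Camk2a line, a log2 change of -0.98 (SE 0.204). Igfbp2, a carrier of insulin-like growth factors, was at -0.79 (SE 0.152). Enpp2, which encodes autotaxin, was at 0.13 (adjusted p = 0.306), and the region of Rdh5, shared with Bloc1s1, at -0.25 (adjusted p = 0.125). The summed level of the 10 regions was 233 to 270.2 CPM in the Rosa line and 257 to 272 CPM in the Camk2a line, so the groups overlapped.

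Of 37 annotated genes of motile cilia and the ependyma, 26 had a TSS region. In tChIP-Seq, 5 were lower in the Camk2a line, 2 were higher and 19 did not pass, with a median of -0.08. Over all regions, 14.6% were called lower and 17% higher, so the lower calls of the list were near the share of all regions. Spef2, a gene of the sperm flagellum and cilia, was at 6.78, 8.35 and 10.5 CPM in the Rosa line and at 1.97, 1.80 and 5.53 CPM in the Camk2a line, a log2 change of -1.44 (SE 0.363, adjusted p = 0.000684, edgeR). At this depth such levels rest on few reads. Spef2 was also called in the interaction, but that call was lost in 7 of 16 alternative fits. Rfx4, a regulator of ciliary genes, was at 60.0, 57.3 and 62.3 CPM against 26.9, 27.1 and 36.5 CPM, and fell by 0.99 on the log2 scale (SE 0.125). Trp73, which encodes the p73 factor of multiciliated cells, fell by 0.69 (SE 0.185) and had the largest rise of the list in tChIP-Seq over single ChIP-Seq within the Rosa line, 2.39 (SE 0.204). The call for Trp73 between the lines was lost with DESeq2 and on leaving out replicate 1 of either group. Rfx2 and the region shared by Ccdc40 and Tbc1d16 were also lower, at -0.44 and -0.32. Spag6, of the central pair of cilia and with a close paralog in the mouse that may share its reads, rose by 1.04 (SE 0.173), and Lrriq1 rose by 0.62 (SE 0.181). Rfx3, with the most reads among those that did not pass, was at -0.13 (adjusted p = 0.174), and the region shared by Fank1 and Dhx32 at 0.23 (adjusted p = 0.0189). The summed level of the list was 1105 to 1167 CPM in the Rosa line and 1081 to 1119.7 CPM in the Camk2a line. With DESeq2 only 2 of these genes were called lower and 1 higher. With single libraries left out, 2 were called lower without Rosa tChIP replicate 1, 3 without Camk2a tChIP replicate 2 or 3, and 4 to 6 without each of the others.

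Of 15 genes that pattern the dorsal midline, 9 had a region, and in tChIP-Seq 4 were higher in the Camk2a line and 3 lower, where 17% and 14.6% of all regions were called. The higher calls were 3 with DESeq2 and without Camk2a tChIP replicate 3 or Rosa tChIP replicate 1. The R-spondin genes, enhancers of Wnt signalling, rose. Rspo2 was at 39.1, 38.2 and 36.1 CPM in the Rosa line and at 94.5, 92.0 and 92.1 CPM in the Camk2a line, a log2 change of 1.30 (SE 0.105, adjusted p = 1.72e-18, edgeR). Rspo3 rose by 0.88 (SE 0.0792) and Rspo1 by 0.80 (SE 0.185), as did Bmpr1b, a receptor of bone morphogenetic proteins, by 0.53 (SE 0.144). Among the genes that were lower, Msx3, a relative of Msx1, was at 24.0, 23.9 and 23.6 CPM against 12.8, 12.3 and 9.58 CPM, a log2 change of -1.03 (SE 0.194, adjusted p = 5.94e-06, edgeR). The ligand genes Bmp6 and Bmp7 were at -0.87 (SE 0.125) and -0.72 (SE 0.106). Bmpr1a was at 0.08 and Gdf7, another ligand gene, at 0.18, without passing the test. Msx1 and 3 of these 9 genes were thus lower, and the R-spondin genes with a region were higher. In single ChIP-Seq, where 0.928% of all regions were called higher and 1.22% lower, Rspo3 was called higher in the Camk2a line. Its log2 change was 0.24 (SE 0.0555, adjusted p = 0.00271, edgeR). No other gene of this list, of the choroid plexus and cilia lists or of the relatives of the 8 genes was called there. The call for Rspo3 in single ChIP-Seq was lost with DESeq2 and on leaving out 4 of the 6 libraries in turn.

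Relatives of the 8 genes were examined in a list of 20, and 8 had a region. In tChIP-Seq, 5 were lower in the Camk2a line, 0 higher and 3 did not pass, with a median of -0.80, where 14.6% of all regions were called lower and 17% higher. Aqp4, the water channel gene of astrocyte endfeet, was at 19.3, 23.3 and 21.0 CPM in the Rosa line and at 3.94, 2.53 and 2.95 CPM in the Camk2a line, a log2 change of -2.71 (SE 0.269, adjusted p = 1.49e-14, edgeR). Its levels in the Camk2a line rest on few reads. Clic1 was at -2.60 (SE 0.216), Clic5 at -1.26 (SE 0.176) and Clic4 at -0.89 (SE 0.0982). The region in Clic6 did not pass, but unlike these it contains no TSS, and its difference from them was not tested. Otx1, a homeobox gene related to Otx2, was at -0.71 (SE 0.0925). Foxj2 and Foxj3, the relatives of Foxj1, were at -0.01 (adjusted p = 0.959) and -0.03 (adjusted p = 0.779).

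**Figure D5:**
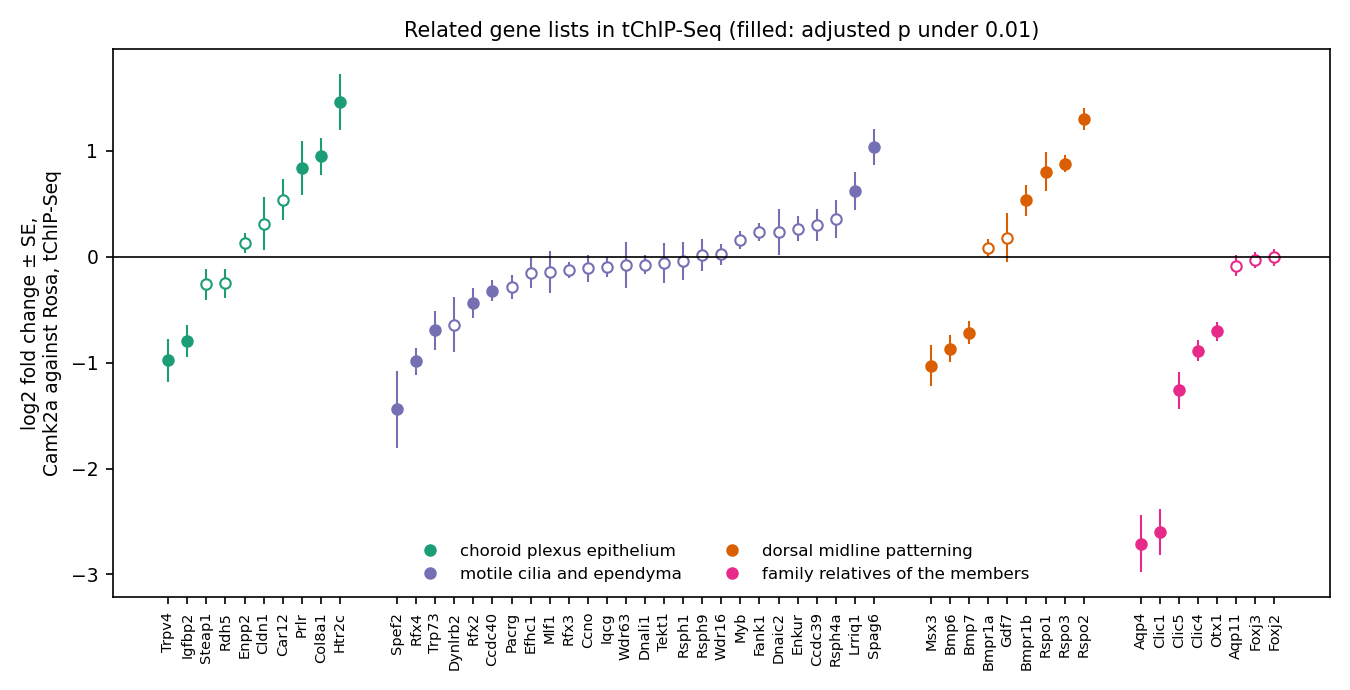
Log2 fold change with its SE between the Camk2a and Rosa lines in tChIP-Seq for each gene with a TSS region in the lists of choroid plexus epithelium, motile cilia and ependyma, dorsal midline patterning and relatives of the 8 genes. Filled points had an adjusted p under 0.01; the values run from -2.71 for Aqp4 to 1.46 for Htr2c, and the first 3 lists hold filled points on both sides of 0.

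Markers of other cell types moved in the same comparison, in which 17% of all regions were called higher and 14.6% lower. In tChIP-Seq, 7 of 7 excitatory neuron markers with a region were called higher in the Camk2a line, with a summed level of 474 to 519 CPM in the Rosa line and 1283 to 1371 CPM in the Camk2a line. Of the astrocyte markers 6 of 7 were called lower and 1 higher, of the oligodendrocyte markers 5 of 6 lower and 1 higher, of the endothelial markers 7 of 7 lower, of the inhibitory neuron markers 3 of 5 lower, and of the markers of pericytes and meninges 3 of 4 lower. The summed level of the endothelial markers was 266 to 277 CPM in the Rosa line and 71.4 to 81.0 CPM in the Camk2a line, and that of the pericyte and meningeal markers was 132 to 168 CPM and 39.7 to 43.1 CPM. None of the 8 microglia markers had a region. In single ChIP-Seq between the lines, 0.928% of all regions were called higher in the Camk2a line and 1.22% lower. Of the markers, 1 of excitatory neurons was called higher and 3 of 6 of oligodendrocytes lower. Those oligodendrocyte calls became 0 with DESeq2 and without Camk2a single ChIP replicate 2. No marker of the other lists was called in single ChIP-Seq. Within the Rosa line, tChIP-Seq had 24.7% of all regions called higher and 22.5% lower. There, 7 of 7 excitatory neuron markers were lower, with sums of 980 to 991 CPM (single ChIP-Seq) and 474 to 519 CPM (tChIP-Seq). Higher were 6 of 7 astrocyte, 4 of 7 endothelial, 3 of 5 inhibitory neuron and 2 of 4 pericyte and meningeal markers. Lower were also 1 astrocyte and 3 of 6 oligodendrocyte markers. Rosa tChIP-Seq was thus not an even reference for them. The part of these cell types and of this Rosa shift in the values of Msx1 and Foxj1 was not tested.

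Across the 12 libraries, the TSS regions whose log2 CPM followed Msx1 most closely were those of Smad6 (Pearson's r = 0.9944), of Nr2e1 and Ostm1, which share a region (r = 0.9914), and of Epha2 (r = 0.9912), out of 13133 regions with at least 200 reads. Of these, 563 (4.29%) had an r above 0.9 with Msx1. With Foxj1, 12 regions did, led by Ripk4 (r = 0.9412), Pik3cd (r = 0.9333) and Fam38a (r = 0.9160). With Kl, 55 did, and Sept9 (r = 0.9564), Abcb6 (r = 0.9488) and Podn (r = 0.9486) were nearest. Foxj1 and Kl had fewer reads than Msx1, and counting noise lowers r. The 12 libraries fall into 4 groups and differ in depth, so these values describe likeness between group means and depth as well as between libraries.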

How the data were processed

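Of the 24 libraries of the series, 12 were H3K4me3 libraries from single ChIP-Seq or tChIP-Seq, and the 12 input and FLAG libraries were not analysed here. Per the paper's methods, the authors filtered reads of 80 nt with the FASTX Toolkit, discarded those on repeats, aligned what remained to mm9 and removed duplicates. Peaks came from MACS, and reads were counted in each peak. The submitters' processing notes name bcl2fastq 1.8.4, Bowtie2 2.1.0, Bowtie 1.0.0, SAMtools 0.1.19 and bedtools 2.17.0. The deposited values are raw counts per region, on a list of 17993 regions shared by all libraries; the methods say that peaks had to be reproducible in the triplicates, and the rule by which the peaks of the 4 groups became 1 list is not given in the sources used here.

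The region of a gene was the region containing one of its GENCODE M1 TSSs, and the region with the highest total count where there were several. The 5′ end of a transcript was taken as its TSS. Promoter sequence was read from the mm9 genome (NCBIM37). Counts were tested in edgeR 4.0.16 (R 4.3.3) by glmQLFit and glmQLFTest, with TMM factors, no filter and Benjamini-Hochberg adjustment over all regions, with calls at an adjusted p under 0.01. Comparisons of 2 groups used their own 6 libraries and the interaction all 12. The SE was obtained from the F statistic, as the absolute log2 fold change over its root. CPM used TMM factors over the 12 libraries. The procedure was tested on simulated data. Pairs of replicates of a group had a chi-square per degree of freedom between 1.03 and 1.09, and no pair was taken as a repeated deposit of one library.

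The members and the lists were chosen with earlier results of these data known, so no list is independent evidence. Named genes were the members, in each list the up to 4 called with the largest log2 fold change in tChIP-Seq between the lines and the up to 2 in each other comparison, the 2 uncalled with the most reads, and the 3 regions most like each member. Others named, among them Lrriq1, Rfx2, Ccdc40, Bmp7, Bmpr1b, Rspo1, Otx1 and genes without a region, were added with their values known to complete a list. Igfbp2 was picked in the Rosa line and the interaction, and its value between the lines in tChIP-Seq was added in the same way. Not every picked gene is described in each comparison that picked it. Of the cilia list, 3 symbols were not annotated. Alternatives were DESeq2 1.42.0 (Wald test, or its size factors in edgeR), library totals alone, a minimum of 10 counts, leaving out 40% of regions, a threshold of 0.05, all 12 libraries in one fit, a replicate block, each library left out, and a TSS within 1000 bp. Tables and figures used numpy 2.4.6, pandas 2.3.3 and matplotlib 3.10.9.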

Additional observations from a re-analysis of the deposited data

Results flagged for a closer look

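The change from single ChIP-Seq to tChIP-Seq differed between the lines for 2 of the 3 genes, by the test of the interaction in edgeR, where 13.2% of all regions, and 22.4% of those with 599 to 2189 reads, were called lower. For Msx1 the difference was -2.12 on the log2 scale (SE 0.148), with a rise of 1.02 in the Rosa line and a change of -1.11 in the Camk2a line. For Foxj1 it was -0.80 (SE 0.228), with 0.81 in the Rosa line and -0.01 in the Camk2a line. The call for Foxj1 was lost with DESeq2 (adjusted p = 0.0116) and in edgeR without Camk2a tChIP replicate 1 (adjusted p = 0.0281) or Rosa tChIP replicate 2 (adjusted p = 0.0318). Groups of 3 libraries are too small for a test of single outlying libraries, and none was made.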

How the results depend on the processing

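Msx1 kept its direction and its side of the threshold in each comparison under each alternative. Foxj1 stood at about 0 between the kinds of ChIP-Seq in the Camk2a line and changed sign, to 0.010 with library totals alone, to 0.00034 with a minimum of 10 counts in every library, to 0.05 without Camk2a single ChIP replicate 1 and to 0.16 without Camk2a tChIP replicate 1, with a range from -0.18 to 0.16 over the libraries left out. Kl, uncalled between the lines in tChIP-Seq, changed to 0.11 without Rosa tChIP replicate 1, with a range from -0.24 to 0.11 over the libraries left out. The 2 genes called lower in tChIP-Seq between the lines, and the 2 of the interaction, became 1 with DESeq2 and between 1 and 2 with each library left out. The 1 gene called higher in the Camk2a line became 0 with DESeq2, between 0 and 1 with each library left out, and 2 with a TSS within 1000 bp, which adds Clic6. The interaction of Clic6 was past the threshold without Camk2a tChIP replicate 3 (-1.01) and at a threshold of 0.05. Without the 40% of regions with the lowest counts, Foxj1 and Kl were not tested, which left 1 gene lower in tChIP-Seq between the lines and in the interaction, 1 higher in the Rosa line and 0 higher in the Camk2a line.

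Over all regions, this last filter moved the calls higher and lower to 2027 and 1249 from 3062 and 2620 in tChIP-Seq between the lines, to 65 and 41 from 167 and 219 in single ChIP-Seq, to 1870 and 1766 from 4439 and 4046 in the Rosa line, and to 2518 and 1992 from 4559 and 4058 in the Camk2a line, and the lower calls of the interaction to 1167 from 2375. With DESeq2 there were 5 and 12 calls in single ChIP-Seq and 2414 lower calls in the Camk2a line, and at a threshold of 0.05 there were 522 and 669 calls in single ChIP-Seq. With each library left out, single ChIP-Seq gave 69 to 131 higher and 49 to 165 lower calls. With library totals alone, the calls higher and lower were 2570 and 3315 in tChIP-Seq between the lines, 194 and 57 in single ChIP-Seq, 5298 and 2522 in the Rosa line and 1894 and 2970 in the interaction (2466 and 2375 with TMM); the median of all regions moved by less than 0.1.

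The replicate block gave -2.20 for Msx1 and -0.63 for Foxj1 (adjusted p = 0.00421 in edgeR) in tChIP-Seq between the lines and changed no call of the 3 genes. The deviations of samples with the same number from their group means had correlations from -0.0075 to 0.027. Libraries of a group differed by little more than counting noise, so this check could not decide whether such samples share a lysate. The main fits did not pair them. At 19 to 72 reads per library for Kl, small differences were not detectable at this depth.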

Other observations

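In the Rosa line, tChIP-Seq and single ChIP-Seq were also compared for the related lists. Over all regions, 24.7% were called higher and 22.5% lower, and of the regions with at most 598 reads 47.1% were called higher, with a median log2 fold change of 0.80. This class was cut on reads of both kinds and is not independent of the comparison. Of the 26 cilia and ependyma genes with a region, 15 were called higher in tChIP-Seq and 1 lower, with a median log2 fold change of 0.50 against -0.0020 for all regions. Of the 10 choroid plexus genes, 5 were called higher and 0 lower, with a median of 0.75. Trpv4 rose by 1.39 (SE 0.190) and Igfbp2 by 1.27 (SE 0.136). Of the 9 dorsal midline genes, 5 were called higher and 1 lower. Msx3 rose by 1.66 (SE 0.185) and Gdf7, a ligand of the roof plate, by 1.60 (SE 0.259).

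In the Camk2a line, 7 of the 10 choroid plexus genes were called higher in tChIP-Seq and 0 lower, where 25.3% of all regions were called higher and 22.6% lower, and 37.3% of those with at most 598 reads were called higher. The 7 became 3 with DESeq2 and 4 without Camk2a single ChIP replicate 2 or Camk2a tChIP replicate 1. Prlr rose by 1.65 (SE 0.215) and Car12, a carbonic anhydrase gene, by 1.07 (SE 0.169). Of the 26 cilia genes, 10 were called higher and 3 lower, or 5 and 2 with DESeq2. Among those that were higher were Dnaic2, a dynein intermediate chain gene, at 1.14 (SE 0.204) and Myb, a regulator of multiciliated cells, at 0.98 (SE 0.0766). Prlr, Car12, Dnaic2 and Myb were also called higher in tChIP-Seq within the Rosa line, so their rises were not particular to the Camk2a line. The Rosa call for Prlr was lost without Rosa tChIP replicate 2. Myb was at 45.9, 46.8 and 50.4 CPM in Rosa single ChIP-Seq and at 89.2, 95.4 and 102 CPM in Rosa tChIP-Seq. Among the relatives, 0 were called higher and 4 lower, with Aqp4 at -2.01 (SE 0.263) and Clic1 at -1.91 (SE 0.203). By the interaction, 13.7% of all regions were called higher and 13.2% lower. Of the choroid plexus list 1 gene was called higher and 1 lower, and of the cilia list 1 and 4. The dorsal midline list had 2 higher and 3 lower, and the relatives 0 higher and 5 lower. Among the called genes were Htr2c, at 1.38 (SE 0.318), and Rspo2, at 1.23 (SE 0.136). Trp73, at -1.41 (SE 0.287), and Clic1, at -2.77 (SE 0.244), were among the lower calls. Each had an adjusted p under 0.01 in edgeR.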
